A study of Mus musculus with 6 samples.

Results

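The 10 genes described here mark T cells and natural killer (NK) cells, and were taken by symbol from the 55416 genes of the count table. They are Cd3e, Cd4 and Cd8a of the T cell lineage, the cytotoxic granule genes Gzma, Gzmb, Gzmk and Nkg7, the NK receptor gene Ncr1, the inhibitory receptor gene Pdcd1 and the regulatory T cell factor Foxp3. All 10 were found, each under 1 Ensembl identifier. RNA was measured in whole liver of male mice, in 3 libraries per genotype. The KO mice carried Ephb2 flox/flox alleles and Pdgfrb-CreERT2, a tamoxifen-inducible recombinase active in hepatic stellate cells and other mesenchymal cells. The WT mice carried the same Ephb2 flox/flox alleles and no Cre. Mice of both genotypes were 8 to 10 weeks old when they received tamoxifen by injection on 5 days. For 8 weeks all then ate an amino acid defined, choline-deficient diet (CDAA), in which fat gave 45% of the energy, methionine made up 0.1% and cholesterol 1%. Such diets cause fatty, inflamed and scarred liver in mice. The driver acts in mesenchymal cells, while the 10 genes are used as markers of immune cells. The KO libraries differ from the WT libraries in both Cre and the deletion, which cannot be told apart here.

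T cells recognise peptides on MHC molecules through a receptor that signals by the CD3 chains, with CD4 or CD8 as coreceptor for MHC class II or class I. CD8 T cells and NK cells kill by releasing perforin and granzymes from granules, and PD-1, the product of Pdcd1, restrains T cells that see antigen for a long time. The liver holds many NK cells and resident T cells, and CD8 T cells bearing PD-1 are known to accumulate in fatty liver disease of mice.

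Total counts per library ran from 21160690 to 26339251 in KO and from 21411113 to 23100862 in WT, and 1 read corresponded to 0.0379 to 0.0495 CPM, the count scaled by library size and by factors from the trimmed mean of M-values (TMM). Ephb2 itself stood at 6.01, 8.87 and 6.95 CPM in KO and at 9.46, 8.28 and 12.4 CPM in WT libraries, and the genotypes overlapped (edgeR adjusted p = 0.850; exact two-sided permutation p = 0.2, where 3 against 3 cannot go below 0.1). The driver leaves the gene intact in other liver cells, so whole-liver RNA checks the labels only weakly. The hepatocyte markers that define the tissue were abundant, with Alb at 38734 ± 5470 CPM in KO and 40406 ± 1437 CPM in WT liver (SD, n = 3 each). Serum amyloid A gene Saa1 was at 57.3, 1857 and 80.4 CPM in KO and 423, 51.6 and 595 CPM in WT libraries, so KO replicate 2 and WT replicates 1 and 3 held more acute phase RNA than the rest. KO replicate 1 and WT replicate 3 stood apart in the genes described here, and values without them stand beside the results that they move most.

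None of the 10 genes differed between the genotypes by the test over all genes. By the quasi-likelihood test of edgeR at an adjusted p under 0.05, 0 of 17083 genes passed (0%), with 886 at an unadjusted p under 0.05 (5.19%). Of these, 527 were higher (3.08%) and 359 lower in KO (2.10%). No member that passed the filter was among the 886, and the smallest p was that of Pdcd1 (edgeR adjusted p = 0.850). Without the filter Gzma and Pdcd1 fell under an unadjusted p of 0.05 (edgeR adjusted p = 0.826 each). KO and WT levels overlapped in all 10 genes, while 11.1% of the genes tested did not overlap, 6.21% higher and 4.90% lower in KO. With 8 of 10 members past the filter on low counts, Gzmk and Foxp3 were read from the fit without a filter, which called 3 of 29609 genes (0.0101%) and put 4.69% at an unadjusted p under 0.05. None of the 3 is a member. limma-voom called 0 genes and DESeq2 called 7, none of them a member (DESeq2 adjusted p = 0.997 for each member). In bulk tissue, fewer cells of a type and less RNA per cell cannot be told apart.

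RNA of these genes was scarce. The 10 genes together took 330, 244 and 272 counts in KO and 192, 234 and 357 counts in WT libraries, or 14.4, 9.25 and 12.1 CPM in KO and 9.51, 9.83 and 17.1 CPM in WT. Per kilobase of exon, which allows levels of different genes to be set side by side, Nkg7 was highest at 2.15 ± 0.251 CPM per kb (SD over 6 libraries), though its lowest library lay below the highest of Gzma (2.14). Gzma (0.674 ± 0.726), Cd3e (0.656 ± 0.164), Gzmb (0.610 ± 0.317), Cd8a (0.551 ± 0.141) and Cd4 (0.478 ± 0.192) followed in CPM per kb and lay within each other's spread. Ncr1 (0.347 ± 0.124), Pdcd1 (0.343 ± 0.322) and Gzmk (0.251 ± 0.243 CPM per kb) came next. Foxp3 was lowest, at 0.0775 ± 0.0234 CPM per kb, and its highest library (0.107) lay above the lowest of Gzmk (0.0273). By the same scale the general leukocyte gene Ptprc, which encodes CD45, stood at 6.77 ± 0.687 CPM per kb. Counting error is large at such depth: the 1 count of Gzmk in KO replicate 2 has an exact 95% Poisson interval of 0.0253 to 5.57 counts. The 45 counts of Gzma in WT replicate 3 have one of 32.8 to 60.2 counts, and such intervals cover counting error only.

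**Figure D1:**
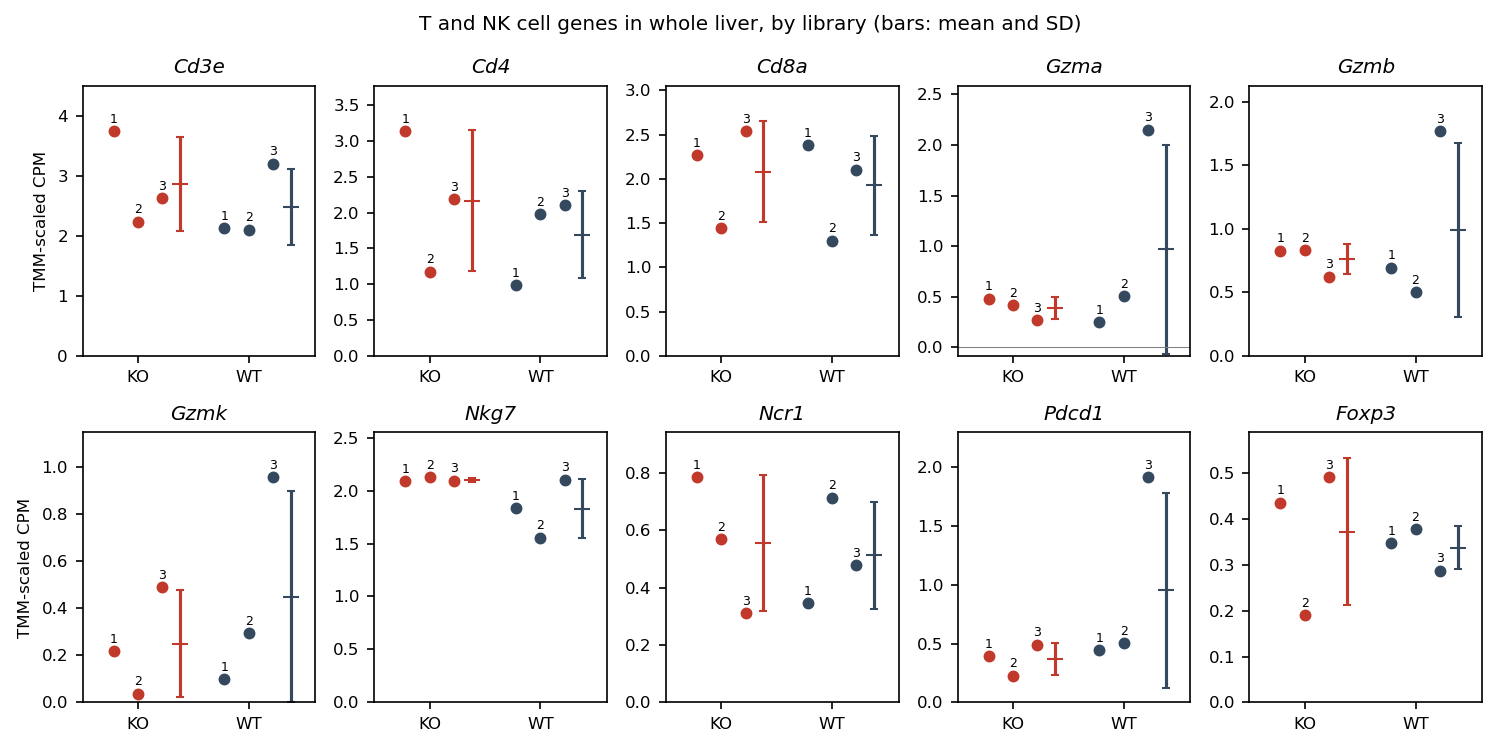
Each panel plots 1 gene, with TMM-scaled CPM on the y axis and the KO libraries left of the WT libraries; points are libraries labelled by replicate number, and bars give the mean and SD of 3. Gzma, Gzmb, Gzmk and Pdcd1 are highest in WT replicate 3 (2.15, 1.77, 0.957 and 1.91 CPM), while Cd3e and Cd4 are highest in KO replicate 1 (3.75 and 3.14 CPM).

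Among the lineage genes, Cd3e encodes the epsilon chain of the CD3 complex that all T cells carry. It was at 3.75, 2.24 and 2.63 CPM in KO and at 2.13, 2.10 and 3.20 CPM in WT libraries. KO replicate 1 was highest and WT replicate 3 second, and the other 4 libraries lay close together. The mean was 2.87 ± 0.783 CPM in KO and 2.48 ± 0.629 CPM in WT (SD, n = 3 each), a log2 fold change of 0.21 (95% interval -0.42 to 0.84; edgeR adjusted p = 0.889). Without KO replicate 1 it was -0.028. Cd3e lies on the minus strand at chr9:44998740-45009627 (GRCm38), and the antisense gene Gm48719 overlaps its exons.

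Cd4, the coreceptor of helper and regulatory T cells that some dendritic cells of mice also carry, was at 3.14, 1.18 and 2.18 CPM in KO and at 0.990, 1.97 and 2.10 CPM in WT libraries. The lowest library was WT replicate 1 and the highest KO replicate 1, with the 2 genotypes mixed between them. Its log2 fold change was 0.34 (95% interval -0.60 to 1.29; edgeR adjusted p = 0.880), and -0.024 without KO replicate 1. Cd8a, the alpha chain of the coreceptor of killer T cells, was at 2.27, 1.44 and 2.54 CPM in KO and at 2.38, 1.3 and 2.10 CPM in WT libraries. Each genotype thus had 1 low library and 2 higher ones, and the log2 fold change was 0.11 (95% interval -0.61 to 0.83; edgeR adjusted p = 0.948). It was -0.06 without KO replicate 3 and -0.11 without WT replicate 2. The ratio of Cd8a to Cd4, each per exon length, was 0.801, 1.36 and 1.29 in KO and 2.66, 0.731 and 1.11 in WT libraries, so that WT replicate 1 alone lay above 2. Both genes are on chromosome 6, Cd4 at chr6:124864692-124888221 on the minus strand and Cd8a at chr6:71373427-71379173 on the plus strand.

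Of the cytotoxic and NK members, Nkg7 varied least over the libraries. Nkg7, a granule membrane protein of NK cells and killer T cells needed for granule release, was at 2.09, 2.12 and 2.10 CPM in KO and at 1.83, 1.55 and 2.10 CPM in WT libraries. The KO libraries were nearly equal, and WT replicate 3 lay at their level. Its log2 fold change of 0.20 (SE 0.21; 95% interval -0.28 to 0.68; edgeR adjusted p = 0.872) bounds the difference more tightly than that of any other member. Ncr1, which encodes the activating receptor NKp46 of NK cells and some innate lymphoid cells, was at 0.784, 0.569 and 0.312 CPM in KO and at 0.347, 0.714 and 0.478 CPM in WT libraries. The genotypes covered the same range, with a log2 fold change of 0.10 (95% interval -0.92 to 1.12; edgeR adjusted p = 0.970), which was -0.22 without KO replicate 1 and -0.11 without WT replicate 1.

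Gzma, a trypsin-like granzyme, was at 0.479, 0.417 and 0.267 CPM in KO and at 0.248, 0.504 and 2.15 CPM in WT libraries. WT replicate 3 lay 4.27 times above the next library, and the other 2 WT libraries lay just outside the KO range, 1 on either side. The log2 fold change of -1.3 (SE 0.75; 95% interval -3.02 to 0.43; edgeR adjusted p = 0.850) became 0.024 without WT replicate 3. Gzmb, the granzyme that triggers apoptosis by cleaving caspases, was at 0.828, 0.834 and 0.624 CPM in KO and at 0.693, 0.504 and 1.77 CPM in WT libraries. Here too WT replicate 3 was highest, 2.12 times above the next library, and KO replicates 1 and 2 came after it. Its log2 fold change was -0.36 (95% interval -1.46 to 0.74; edgeR adjusted p = 0.893), and 0.36 without WT replicate 3. Gzmk, a granzyme of memory-like CD8 T cells and of some NK cells, was at 0.218, 0.0379 and 0.490 CPM in KO and at 0.0990, 0.294 and 0.957 CPM in WT libraries. These values rest on 5, 1 and 11 counts in KO and 2, 7 and 20 counts in WT, with WT replicate 3 again highest. Its log2 fold change in the fit without a filter was -0.88 (95% interval -2.51 to 0.74; edgeR adjusted p = 0.826), and 0.25 without WT replicate 3.

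Relative to Nkg7 and per exon length, Gzma stood at 0.208, 0.178 and 0.116 in KO and at 0.123, 0.295 and 0.929 in WT libraries. WT replicate 3 therefore held more granzyme RNA for its Nkg7 RNA than the other 5 libraries did, and the same ratio for Gzmb was 0.252, 0.250 and 0.190 in KO and 0.241, 0.206 and 0.535 in WT. Gzma and Gzmk lie near each other on the minus strand of chromosome 13 (chr13:113093825-113100981 and chr13:113171608-113225908), Gzmb on the minus strand at chr14:56258838-56262260, Nkg7 at chr7:43437073-43438249 and Ncr1 at chr7:4337724-4345164, both on the plus strand. None of the 50-base words of Gzma, Gzmb, Gzmk, Nkg7 or Ncr1 transcripts occurred in a transcript of another gene.

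The promoter windows of these 5 genes are shown because they are the cytotoxic and NK members. Each is a window of 300 bases on GRCm38.p6 that ends 50 bases after a start in RefSeq, 5′ to 3′ on the gene's strand. Among the 5 windows shown, RefSeq starts and the gene ends of GENCODE, which gave the positions above, coincide for Gzma only. Ncr1 has a further RefSeq start, which coincides with its GENCODE start, and the window of that start (chr7:4337474-4337773) is not shown. The Gzmb window lies wholly upstream of the GENCODE gene and the Gzmk window wholly inside it. Capitals mark matches on either strand. The motifs searched were TGTGGT for RUNX factors and TGANTCA for AP-1. For T-box factors the letters GGTGTGA were searched, and for STAT factors TTCNNNGAA. The TATA box was searched as TATAAA and the cAMP response element as TGACGTCA.
Gzma promoter, chr13:113100932-113101231, minus strand: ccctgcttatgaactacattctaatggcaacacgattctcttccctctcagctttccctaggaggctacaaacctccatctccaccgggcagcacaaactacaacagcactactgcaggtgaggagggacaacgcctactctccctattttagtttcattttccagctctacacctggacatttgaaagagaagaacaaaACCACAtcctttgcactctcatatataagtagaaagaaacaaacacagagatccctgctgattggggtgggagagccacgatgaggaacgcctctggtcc
Gzmb promoter, chr14:56262285-56262584, minus strand: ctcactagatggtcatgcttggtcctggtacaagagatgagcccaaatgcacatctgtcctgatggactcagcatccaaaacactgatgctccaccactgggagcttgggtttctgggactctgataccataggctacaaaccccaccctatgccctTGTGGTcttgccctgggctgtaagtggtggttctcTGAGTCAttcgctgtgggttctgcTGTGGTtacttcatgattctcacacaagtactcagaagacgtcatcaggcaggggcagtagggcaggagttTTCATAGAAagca
Gzmk promoter, chr13:113180916-113181215, minus strand: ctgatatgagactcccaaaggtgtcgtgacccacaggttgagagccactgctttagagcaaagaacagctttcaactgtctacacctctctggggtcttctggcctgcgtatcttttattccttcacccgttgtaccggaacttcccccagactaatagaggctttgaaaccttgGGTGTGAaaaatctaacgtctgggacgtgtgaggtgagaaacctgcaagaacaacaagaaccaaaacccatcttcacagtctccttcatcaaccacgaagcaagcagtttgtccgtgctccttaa
Nkg7 promoter, chr7:43436888-43437187, plus strand: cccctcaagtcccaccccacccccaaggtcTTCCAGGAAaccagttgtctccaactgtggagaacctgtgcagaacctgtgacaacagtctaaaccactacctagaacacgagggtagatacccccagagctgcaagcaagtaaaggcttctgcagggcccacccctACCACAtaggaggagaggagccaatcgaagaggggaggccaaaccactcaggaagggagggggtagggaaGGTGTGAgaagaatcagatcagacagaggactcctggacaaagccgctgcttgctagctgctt
Ncr1 promoter, chr7:4337465-4337764, plus strand: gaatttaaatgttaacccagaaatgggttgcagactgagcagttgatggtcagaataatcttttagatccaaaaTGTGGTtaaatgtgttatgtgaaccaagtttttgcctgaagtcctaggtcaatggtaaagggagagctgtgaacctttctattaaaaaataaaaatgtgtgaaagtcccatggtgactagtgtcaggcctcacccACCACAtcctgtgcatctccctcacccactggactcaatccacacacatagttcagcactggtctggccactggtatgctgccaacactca

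TGTGGT was found in the windows of Gzma, Gzmb, Nkg7 and Ncr1, and in 16.8% of all 32851 promoter windows of this length. Its first base lay at -50 in Gzma, at -93 and -34 in Gzmb, at -83 in Nkg7 and at -176 and -41 in the Ncr1 window shown. Positions are counted from the RefSeq start base as 0. GGTGTGA was found in Gzmk (-75) and Nkg7 (-13) and in 3.98% of all windows, TGANTCA in Gzmb (-58) and in 7.81%. TTCNNNGAA was found in Gzmb (37) and Nkg7 (-220) and in 8.30% of all windows. TATAAA (13.6% of all windows) and TGACGTCA (1.79%) were in none of the 5. The windows of Cd3e, Cd8a and Pdcd1 held none of the 6 motifs. Of the 2 Foxp3 windows, 1 held TATAAA (-32) and 1 held TTCNNNGAA (-139), and Cd4 was not matched. A match is a description of the letters and not of a bound site.

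Pdcd1 encodes PD-1, the receptor of T cells that have been activated or have become exhausted. It was at 0.392, 0.228 and 0.490 CPM in KO and at 0.446, 0.504 and 1.91 CPM in WT libraries, from 9, 6 and 11 counts in KO and 9, 12 and 40 counts in WT. WT replicate 3 lay 3.80 times above the next library, and the remaining 5 ran from 0.228 to 0.504 CPM. The log2 fold change was -1.36 (SE 0.64; 95% interval -2.84 to 0.11; edgeR adjusted p = 0.850), and -0.38 without WT replicate 3. The exact two-sided permutation test of its log2 CPM gave p = 0.2, where the smallest possible is 0.1. Per exon length and relative to Cd3e, Pdcd1 was at 0.221, 0.215 and 0.394 in KO and at 0.442, 0.507 and 1.26 in WT libraries. This ratio did not overlap between the genotypes, the only one of 13 computed ratios between members of which that holds. Of the single genes tested, 11.1% did not overlap, and the ratio is given with no test. Its nearest libraries, KO replicate 3 (0.394) and WT replicate 1 (0.442), had 11 and 9 counts of Pdcd1. Pdcd1 lies on the minus strand at chr1:94038305-94052553.

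Foxp3, the transcription factor that defines regulatory T cells, was at 0.436, 0.190 and 0.490 CPM in KO and at 0.347, 0.378 and 0.287 CPM in WT libraries. These are 10, 5 and 11 counts in KO and 7, 9 and 6 in WT, and the WT libraries lie inside the KO range. The log2 fold change in the fit without a filter was 0.11 (95% interval -1.02 to 1.24, edgeR adjusted p = 0.982). At this depth the interval is wide and leaves room for a difference of either sign. The log2 fold change was -0.024 without KO replicate 1 and -0.13 without KO replicate 3. Foxp3 lies on the plus strand at chrX:7573644-7595245, where Ccdc22, Ppp1r3f, Gm36995 and Flicr overlap its exons, and 23.1% of its 50-base words occur in transcripts of other genes. Whether its reads were counted by strand is not given in the sources used here, so its count is uncertain in this respect.

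**Figure D2:**
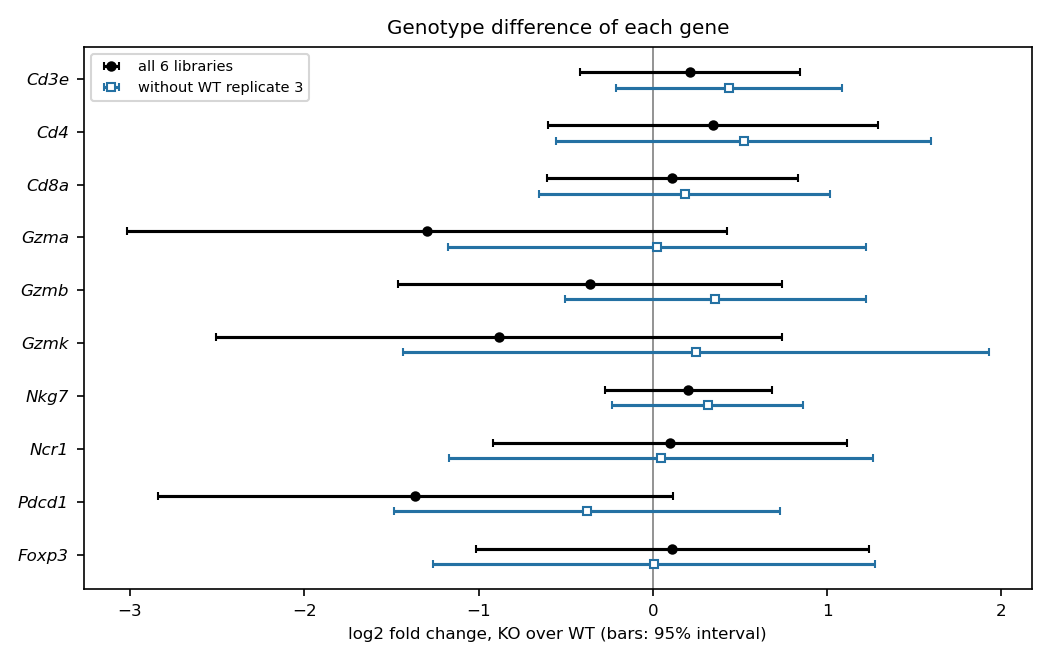
Log2 fold changes of KO over WT (x axis) for the 10 genes, with 95% intervals from edgeR; filled points use all 6 libraries and open squares leave out WT replicate 3. All 20 intervals include 0, and Gzma is at -1.3 with all libraries and at 0.024 without WT replicate 3.

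Lists of further T and NK cell genes were counted beside the members. Of 20 genes of the T cell receptor complex and its proximal signalling, 19 passed the filter, with 15 higher and 4 lower in KO and a median log2 fold change of 0.14, against -0.0048 over all genes tested. None was called or had an unadjusted p under 0.05. Without KO replicate 1 the list had 8 genes higher and 11 lower and a median of -0.060, and without WT replicate 3 its median was 0.30. The smallest p fell to Cd28, the main co-stimulatory receptor (0.41, SE 0.20), to the scavenger-like receptor gene Cd6 (0.67, SE 0.36) and to Lck (0.41, SE 0.22), the kinase that starts receptor signalling. Lck was at 4.57, 3.15 and 2.94 CPM in KO and at 2.72, 2.86 and 2.44 CPM in WT libraries, and the genotypes did not overlap (edgeR adjusted p = 0.850). Without KO replicate 1 the value of Lck was 0.19 and that of Cd6 0.29. KO replicate 1 held the highest level of 11 of the 19 genes, while it was highest in 11.9% of all genes tested. Trac, the constant chain of the alpha receptor, was at 2.66, 1.21 and 1.47 CPM in KO and at 1.39, 1.26 and 2.20 CPM in WT libraries, the same order at the top as Cd3e.

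Coreceptors and lineage transcription factors had 9 of 13 genes higher and a median of 0.11, which was -0.024 without KO replicate 1 and -0.036 without KO replicate 3. Several of them, such as Zbtb7b at 82.2 ± 5.27 CPM in KO and 87.8 ± 9.52 CPM in WT (SD, n = 3 each), stood far above Cd3e, and other liver cells are known to express them. Gata3, the factor of type-2 helper cells, had a log2 fold change of 0.25 (SE 0.32), and Bcl6, of follicular helper cells and also a hepatocyte factor, at -0.30 (SE 0.45), which turned to 0.43 without WT replicate 2. Without KO replicate 1 the value of Gata3 was 0.0060. Of 16 cytotoxic genes 10 passed the filter, 5 higher and 5 lower, with a median of 0.01 that was -0.30 without KO replicate 1 and 0.28 without WT replicate 3. Tnfsf10, the death ligand TRAIL, was at 14.3, 12.9 and 11.9 CPM in KO and at 10.5, 11.4 and 6.50 CPM in WT libraries, which did not overlap (log2 fold change 0.46, SE 0.21, edgeR adjusted p = 0.850, and 0.25 without WT replicate 3). Ctsw, cathepsin W of killer cells (0.37, SE 0.30), and Gzmm (-0.37, SE 0.31) followed, and without KO replicate 1 the value of Ctsw was 0.029. The perforin gene Prf1 had 20, 9 and 22 counts in KO and 14, 16 and 20 counts in WT libraries. Interferon-gamma gene Ifng had 4 counts in KO replicate 1 and 0 in the other 5 libraries.

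Of 26 genes of NK cells and innate lymphoid cells 16 passed the filter, 9 higher and 7 lower in KO with a median of 0.07 that was -0.073 without WT replicate 1, and none had an unadjusted p under 0.05. Klrd1, the CD94 chain of NK receptors, had a value of 0.51 on the log2 scale (SE 0.29), the chemokine gene Xcl1 0.49 (SE 0.35) and Il2rb, the receptor chain for interleukins 2 and 15, 0.29 (SE 0.24), which was 0.0097 without KO replicate 1. Without WT replicate 3 the value of Xcl1 was 0.29. Of 10 inhibitory and activation-induced receptors 8 passed, 4 higher and 4 lower, with a median of -0.03 that library-size scaling turns to 0.04 and leaving out KO replicate 2 to 0.14. Tnfrsf9, the co-stimulatory receptor 4-1BB, was at 0.523, 0.341 and 0.357 CPM in KO and at 0.891, 0.462 and 2.49 CPM in WT libraries (log2 fold change -1.63, SE 0.62, edgeR adjusted p = 0.850). It was the 1 gene of the 8 with an unadjusted p under 0.05, against 5.19% of all genes tested. Its WT replicate 3 value stood out as in Pdcd1, and without that library the log2 fold change was -0.71. Tigit, another inhibitory receptor, which was below the filter and was named after its values were seen, had 8, 3 and 3 counts in KO and 12, 7 and 23 counts in WT libraries. Btla (0.25, SE 0.28) and Cd96 (0.24, SE 0.43) did not share that pattern, and Cd96 was lowest in WT replicate 3 at 0.335 CPM. Tox was lowest there too, at 7.94 CPM, and Icos was highest in KO replicate 1, at 1.52 CPM. WT replicate 3 held the highest level of 3 of the 8 genes, and of 24.0% of all genes tested. Without KO replicate 1 the value of Cd96 was -0.15, and without KO replicate 3 that of Btla was 0.011.

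Of 14 regulatory T cell genes 8 passed the filter, 3 higher and 5 lower, with a median of -0.19 that was 0.055 without WT replicate 3. Ikzf2, which encodes Helios, was at 6.67, 6.48 and 6.82 CPM in KO and at 5.20, 6.05 and 4.69 CPM in WT libraries and did not overlap (0.32, SE 0.15, edgeR adjusted p = 0.850). Ikzf4, its relative Eos, was at 0.59 (SE 0.27), and Lrrc32, the TGF-beta anchoring protein GARP, at -0.17 (SE 0.11). Lrrc32 stood at 37.7 ± 2.09 CPM in KO and 42.3 ± 5.62 CPM in WT (SD, n = 3 each), far above Foxp3, and other liver cells express it. Of 10 gamma-delta and invariant T cell genes 6 passed, 4 higher and 2 lower, with a median of 0.15 that was -0.019 without KO replicate 2. Among them 1 gene higher and 1 lower in KO had an unadjusted p under 0.05, against 5.19% of all genes tested. Zbtb16, the factor PLZF of invariant T cells that hepatocytes also express, was at 23.9, 49.2 and 34.1 CPM in KO and at 72.6, 51.1 and 128 CPM in WT libraries, which did not overlap (log2 fold change -1.23, SE 0.36, edgeR adjusted p = 0.850), and it was -0.79 without WT replicate 3. Il17re (0.56, SE 0.23) and Trdc (-1.10, SE 0.64), the delta receptor constant region, followed. Trdc rests on 3, 7 and 10 counts in KO and 12, 24 and 4 counts in WT libraries. With a library left out, its value ran from -1.57 (without KO replicate 3) to -0.48 (without WT replicate 2).

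Homing and residency receptors gave 6 higher and 6 lower of 12 genes that passed, with a median of 0.04 that was -0.037 without KO replicate 2. Of the 12, 2 had an unadjusted p under 0.05, against 5.19% of all genes tested. Itgae, the CD103 integrin of resident T cells and of a dendritic cell type, was at 3.92, 2.84 and 3.70 CPM in KO and at 1.73, 2.44 and 2.15 CPM in WT libraries (0.72, SE 0.22). Cxcr6, the receptor that holds T and NK cells in the liver sinusoids, was at 4.10, 2.16 and 2.05 CPM in KO and at 1.58, 1.76 and 1.67 CPM in WT libraries (0.72, SE 0.31). Both genes were higher in KO with no overlap between the genotypes, as were 6.21% of all genes tested. Neither passed edgeR's test (adjusted p = 0.850 each). Cxcr6 was highest in KO replicate 1, unlike Pdcd1, which was highest in WT replicate 3, and without KO replicate 1 its log2 fold change was 0.33. The integrin gene Itgal had a log2 fold change of -0.40 (SE 0.23), and of -0.17 without WT replicate 3, where it was highest (132 CPM). Itgal stood at 77.3 ± 17.5 CPM in KO and 102 ± 27.9 CPM in WT (SD, n = 3 each), far above Cd3e. The part of other cells in its level was not tested.

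Ligands and cytokines that T and NK cells receive had 6 of 15 genes higher and 9 lower, with a median of -0.10 that was -0.20 without KO replicate 1 and -0.034 without WT replicate 3. Among them 2 genes, both higher in KO, had an unadjusted p under 0.05, against 5.19% of all genes tested. Il15, the cytokine that sustains NK cells and memory CD8 T cells, was at 7.32, 8.19 and 7.44 CPM in KO and at 6.04, 5.38 and 6.41 CPM in WT libraries (0.37, SE 0.14). Il7, which sustains T cells, was at 2.14, 2.73 and 2.63 CPM in KO and at 1.19, 1.97 and 1.72 CPM in WT libraries (0.61, SE 0.25). All 3 KO libraries lay above all WT libraries for both genes, as for 6.21% of all genes tested. Neither passed edgeR's test (adjusted p = 0.850 each). Il12b was at 0.90 (SE 0.47), and at 0.60 without KO replicate 1. With each library left out in turn, Il15 stayed between 0.30 and 0.42 and Il7 between 0.43 and 0.78.

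**Figure D3:**
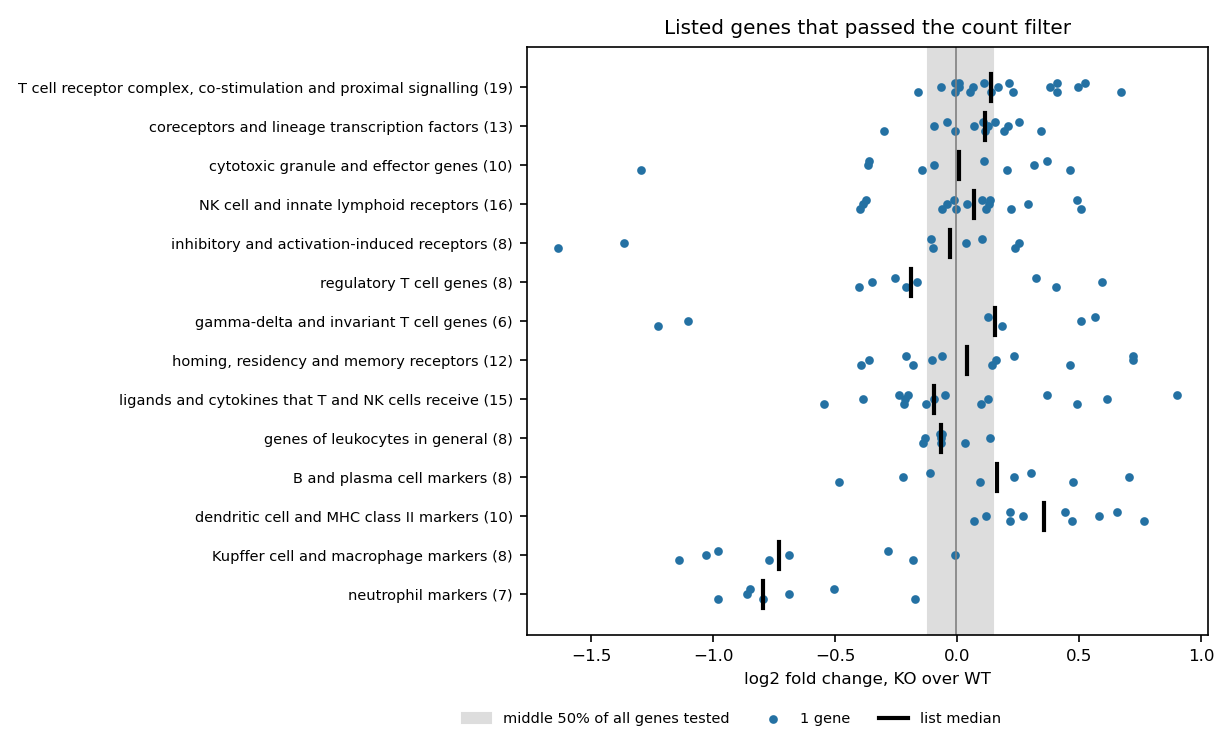
Each point is 1 gene that passed the count filter, placed by its log2 fold change of KO over WT (x axis) in the list named on the y axis, with the number of genes tested in brackets; black bars are list medians and the grey band holds the middle 50% of all genes tested. T cell receptor complex genes have a median of 0.14 and dendritic cell and MHC class II genes of 0.36, while Kupffer cell (-0.73) and neutrophil (-0.80) markers lie lower; without WT replicate 3 these are -0.11 and 0.27, and without KO replicate 1 the T cell receptor complex median is -0.060.

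Markers of other cells moved with the libraries in which the members stood apart. WT replicate 3 held the highest level of 8 of 8 Kupffer cell and macrophage markers, of 7 of 7 tested neutrophil markers and of 7 of 8 general leukocyte genes, while it was highest in 24.0% of all genes tested. The summed Kupffer cell markers were at 590 to 821 CPM in KO and at 687 to 1481 CPM in WT libraries. The summed neutrophil markers were at 35.6 to 99.3 CPM in KO and at 29.8 to 152 CPM in WT. KO replicate 1 held the highest level of 7 of 10 dendritic cell and MHC class II markers and of 5 of 8 B and plasma cell markers. The summed dendritic and MHC class II markers were at 379 to 617 CPM in KO and at 394 to 489 CPM in WT libraries, and those of B and plasma cells at 18.0 to 21.3 CPM in KO and at 17.4 to 18.8 CPM in WT. Mast cell and basophil markers, cells that can also carry granzyme B, were nearly absent, with a sum of 0.131 to 0.455 CPM in KO and 0.126 to 0.526 CPM in WT. Ptprc was at 116, 131 and 129 CPM in KO and at 119, 107 and 142 CPM in WT libraries. Without WT replicate 3 the median log2 fold change of the Kupffer cell markers was -0.11 and that of the neutrophil markers 0.27. Without KO replicate 1 the median of the dendritic cell and MHC class II markers was 0.15 and that of the B and plasma cell markers -0.032. The part of these cells in the members' values was not tested.

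**Figure D4:**
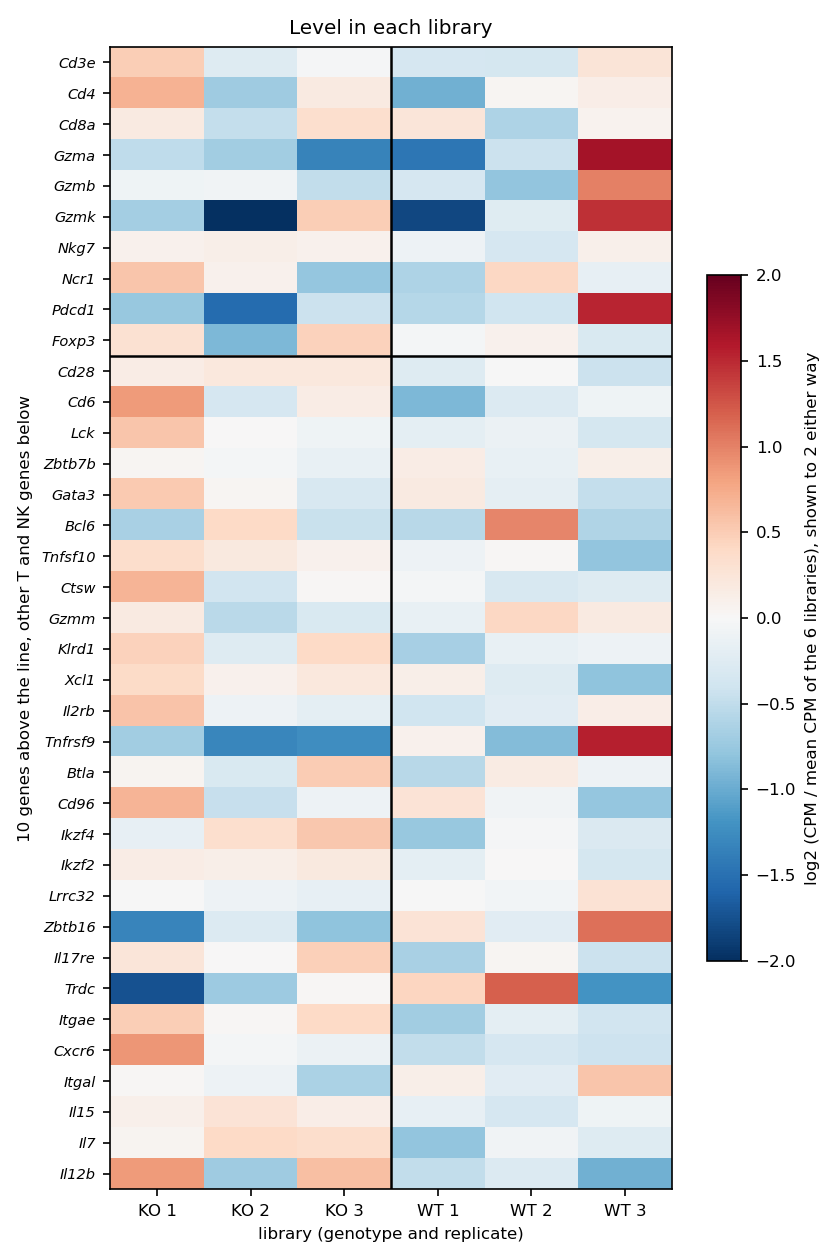
Colour gives log2 of each gene's CPM over its mean CPM of the 6 libraries (columns, KO left of WT), with the 10 genes above the horizontal line and other named T and NK cell genes below it. Gzma, Gzmb, Gzmk, Pdcd1 and Tnfrsf9 are highest in WT replicate 3, and Cd3e, Cd4, Cd6, Lck and Cxcr6 in KO replicate 1.

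Of the 8 genes whose log2 CPM over the 6 libraries was most like that of Cd3e, 4 belong to MHC class II antigen presentation. The ranking covered 13046 genes with a mean of at least 1 CPM and an established symbol. Genes named only as predicted genes, as clones or by an identifier were left out. The highest Pearson r was that of Cd74 (0.992), the invariant chain of MHC class II, followed by H2-Ab1 (0.989), H2-DMb1 (0.983) and H2-Eb1 (0.982) of the class II complex. Mcrs1 (0.978), the NK and T cell adhesion receptor gene Cd226 (0.974), Zfp641 (0.968) and Trac (0.967) completed the 8. Cd74 was at 768, 424 and 542 CPM in KO and at 422, 407 and 613 CPM in WT libraries, highest in KO replicate 1 and next in WT replicate 3, as Cd3e was. With 6 libraries and so many genes such values describe the pattern only, and all points share library and scaling.

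**Figure D5:**
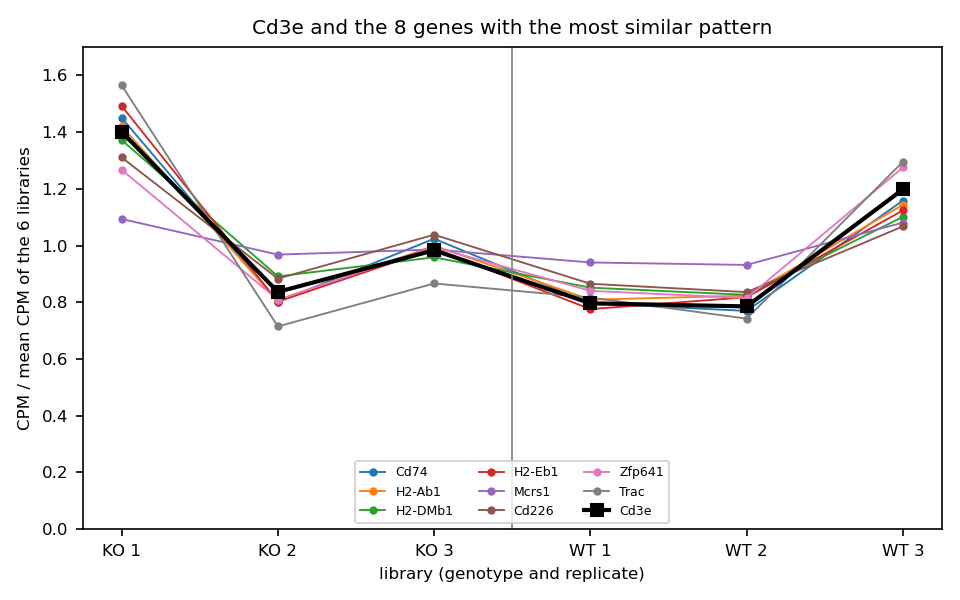
CPM of each gene over its mean CPM in the 6 libraries (y axis) by library (x axis, KO left of WT). Cd3e is in black and the 8 genes of highest Pearson r among those ranked are in colour. Lines join the values of 1 gene. Cd3e and Cd74 are highest in KO replicate 1 (3.75 and 768 CPM) and next in WT replicate 3 (3.20 and 613 CPM).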

How the data were processed

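Raw read counts per gene, one column for each library, are what the authors deposited. The submitters' processing notes name STAR 2.7.6a, featureCounts 1.6.3 and DESeq2 1.30.0 beside GRCm38 and mm10, with no role given for any. Per the labels' protocols, libraries were made from poly(A) RNA with a directional kit; the sources used here do not give the strand setting or annotation of the counting. GENCODE M21 (GRCm38) supplied symbols, positions and exon lengths, and 94.0% of the 55416 IDs matched. How the replicates relate is not in the labels, so the spread tested may be technical. All pairs of libraries differed beyond sampling noise (chi-square per degree of freedom 11.4 to 77.1).

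Genotype was tested with edgeR 4.0.16 in R 4.3.3 (glmQLFit and glmQLFTest, TMM scaling), on 17083 genes kept by filterByExpr (minimum count 10, total 15), with Benjamini-Hochberg adjustment at 0.05. Log2 CPM used a prior count of 2. Members under the filter were read from a fit without it. The procedure was tested on simulated data. Alternatives were other scalings and filters, DESeq2 1.42.0, limma 3.58.1 (voom), robust estimation, a block for replicate number and leaving out each library (for lists and the genes named from them, added after seeing the data). Beside the members, the text names the 3 genes with the smallest p of each T and NK list and the 8 genes most like Cd3e, and gives summed levels and leading genes of other cell types; Prf1, Ifng, Tigit and Saa1 were named after their values were seen. The members and lists were chosen with earlier results of these data known.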

Additional observations from a re-analysis of the deposited data

How the results depend on the processing

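No member passed under any setting run. The number of genes called, 0 in the analysis reported, was 3 without a filter on low counts, 7 by DESeq2 and 0 to 2 with a library left out (2 without WT replicate 3), and 0 under all other settings. Log2 fold changes changed sign as follows: without WT replicate 3 for Gzma (0.024), Gzmb (0.36) and Gzmk (0.25); without KO replicate 1 for Cd3e (-0.028), Cd4 (-0.024), Ncr1 (-0.22) and Foxp3 (-0.024); without KO replicate 3 for Cd8a (-0.06) and Foxp3 (-0.13); without WT replicate 2 for Cd8a (-0.11); without WT replicate 1 for Ncr1 (-0.11); and by limma-voom for Foxp3 (-0.0077). The cause was not tested. Unadjusted p fell under 0.05 for Pdcd1 without a filter, with the replicate block and without WT replicate 1 or 2, and for Gzma without a filter and without WT replicate 1; the smallest adjusted p of any member was 0.444 (edgeR). With a minimum of 1 CPM in 3 libraries, Cd3e, Cd4, Cd8a and Nkg7 alone were tested. Those of Nkg7 (0.09 to 0.31 with a library left out) and Pdcd1 (-1.70 to -0.38) kept their sign. Over the libraries left out, the values ran from -0.028 to 0.44 for Cd3e, from -0.024 to 0.65 for Cd4, from -0.11 to 0.32 for Cd8a, from -1.75 to 0.024 for Gzma and from -0.69 to 0.36 for Gzmb. They ran from -1.82 to 0.25 for Gzmk, from -0.22 to 0.42 for Ncr1 and from -0.13 to 0.44 for Foxp3. With each library left out, chosen after seeing the data, list medians ran from -0.060 to 0.30 (T cell receptor complex), -0.036 to 0.20 (coreceptors), -0.30 to 0.28 (cytotoxic), -0.073 to 0.13 (NK), -0.095 to 0.14 (inhibitory), -0.18 to 0.055 (regulatory T), -0.019 to 0.24 (gamma-delta) and -0.037 to 0.090 (homing). They ran from -0.18 to 0.072 (leukocytes in general), -0.032 to 0.36 (B cells), -1.72 to 0.27 (neutrophils), -0.18 to 0.12 (hepatocytes) and -2.33 to 0.48 (acute phase). Bcl6 ran from -0.69 to 0.43 and Cd96 from -0.15 to 0.47; the other 25 genes named from the T and NK lists kept their sign, and none of the 27 passed. Same-numbered libraries did not deviate together (correlations -0.03, -0.44 and -0.31). So few libraries cannot settle whether the numbers pair the samples. With the replicate block 0 genes were called, 537 at an unadjusted p under 0.05. The median of the stellate cell markers was -0.11 and moved to -0.03 by library size alone. Depth limits Gzmk, Foxp3 and Ncr1 most, with 46, 48 and 74 counts over all libraries.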
